A study of Homo sapiens with 9 samples.

Results

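The knockdown of IMPDH1 was compared with a control hairpin in Huh7 cells, an established human hepatocellular carcinoma line. The compared libraries were the 3 whose count columns are named shIMPDH1 and the 3 named shControl, 6 of the 9 libraries in the series, and all genes with enough counts were described. The other 3 libraries, named shIMPDH2, carried a hairpin against the second IMPDH gene and served only as a check on specificity. Cells of all 3 groups were infected with a pLKO.1 lentivirus packaged in HEK293T cells, a human embryonic kidney line, and were then selected with puromycin to give stable lines in serum-containing DMEM. The control cells therefore shared the infection and the selection with the knockdown cells. RNA was made into stranded poly(A)-selected libraries. The sources used here give neither the hairpin sequences, nor the number of hairpins per gene, nor whether a group was a pool or a clone. The series calls the libraries of a group biological replicates without saying how the cultures were kept apart, so the p-values measure the spread between these libraries, which may be partly technical.

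IMP dehydrogenase oxidises inosine monophosphate to xanthosine monophosphate, the committed and rate-limiting step of guanine nucleotide synthesis. Human cells make the enzyme from IMPDH1 and IMPDH2. IMPDH1 is usually described as the constitutive form and IMPDH2 as the form raised in dividing and tumour cells, and mycophenolic acid, an immunosuppressant, inhibits both. The guanine nucleotides made by this route enter RNA and DNA, and GTP is used by small GTPases, by tubulin and by the initiation and elongation factors of translation.

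Each library held between 44560837 and 58370328 counts, and 17396 of 58684 genes passed the filter on low counts. Levels are given as CPM (a gene's counts per 1000000 counts of its library), with library sizes scaled by TMM (the trimmed mean of M values), and differences as log2 changes with their standard error from edgeR's quasi-likelihood test. A gene was called, and is said here to have risen or fallen, at a Benjamini-Hochberg adjusted p under 0.05 over all genes tested. Libraries of a group lay close together, with a common biological coefficient of variation of 0.0268. The control library of replicate 1 stood apart from the other control libraries, at 5.91 and 7.19 chi-square units per gene against 1.95 between replicates 2 and 3. Its share of mitochondrial counts was 4.55%, against 5.35% and 5.54% in the other controls and 5.09% to 5.25% in the knockdown.

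All 11 hepatocyte markers were tested, and they summed to 37347, 38941 and 39605 CPM in the control and to 43193, 44378 and 44568 CPM in the knockdown. Of these, 7 rose and 1 fell. Markers of other cell types were low or absent. KDR and POSTN had no count in any library, and VWF, TEK, PTPRC, CD3E, DCN and ACTA2 had at most 10 counts over the 3 libraries of a group. Of the genes with counts, PECAM1, an endothelial adhesion molecule, fell from 11.9, 13.3 and 12.8 CPM to 5.71, 6.42 and 5.13 CPM, and LYZ, which encodes lysozyme, rose from 885, 926 and 934 CPM to 1319, 1308 and 1345 CPM, without the defining markers of either cell type. Of the embryonic kidney markers, 6 of 9 were tested and summed to 445 to 462 CPM in the control and 466 to 469 CPM in the knockdown, mostly LIN28B, which was not called, while NEFM had no count and PAX2 a single count. In bulk RNA, fewer cells of a type and less RNA per cell cannot be told apart.

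IMPDH1 (chr7:128392277-128410252, minus strand, GRCh38) was at 62.9, 62.5 and 62.6 CPM in the control libraries, at 25.3, 23.5 and 24.7 CPM in the IMPDH1 knockdown and at 66.4, 71.5 and 73.1 CPM in the IMPDH2 knockdown. The knockdown libraries lay far below every other library. The log2 change was -1.36 ± 0.040 (SE, adjusted p = 7.92e-20) against the control and -1.52 (adjusted p = 2.56e-21) against the IMPDH2 knockdown. IMPDH2 (chr3:49024325-49029408, minus strand) was at 226, 227 and 230 CPM in the control and at 271, 274 and 277 CPM in the IMPDH1 knockdown, a rise of 0.27 ± 0.023 (adjusted p = 3.49e-10). In the IMPDH2 knockdown it was at 109, 110 and 110 CPM. The IMPDH1 libraries were thus the lowest for IMPDH1 and the highest for IMPDH2, with no overlap between groups for either gene.

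Genes around IMPDH1 had smaller changes, and most of those called fell. Of the nearest tested genes on either side, RBM28 and HILPDA were not called, with log2 changes of 0.02 and -0.03, and METTL2B fell by 0.13. CALU, an endoplasmic reticulum calcium-binding protein, fell by 0.23 and FLNC, a filamin, by 0.79. ZNF800, GCC1, CCDC136 and TSPAN33 also fell, by 0.24, 0.23, 0.51 and 0.28. SMO, the Hedgehog signal transducer, rose by 0.22 and was the only called gene there to rise. IMPDH1 had the largest fall among the 20 tested genes within 1 Mb of it, itself included.

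Most other enzymes of guanine nucleotide supply moved little. Of 20 listed genes, all of which were tested, 9 rose and 3 fell, where 20.6% of all genes tested rose and 22.8% fell. The list median was 0.04 on the log2 scale, beside 0.00 over all genes. With a minimum fold of 1.2 in the test, no member rose and only IMPDH1 fell. The other members that fell were PNP, the phosphorylase that releases guanine from guanosine, at -0.22, and the nucleotidase NT5C2 at -0.18. The nucleoside diphosphate kinases NME3, NME4 and NME1 rose by 0.33, 0.22 and 0.17. The ecto-nucleotidase NT5E rose by 0.17, the dNTP hydrolase SAMHD1 by 0.15, guanine deaminase (GDA) by 0.14 and GMPR2, which returns GMP to IMP, by 0.12. GCH1, the entry enzyme of tetrahydrobiopterin synthesis, rose by 0.11, but its call was lost without control replicate 1 (adjusted p = 0.128) and without knockdown replicate 1 (0.0577) or 2 (0.143). GMPS, the next enzyme of the pathway, was not called at 0.02, and neither were the salvage enzyme HPRT1 at 0.03, the kinase GUK1 at 0.05 or XDH, GMPR, GCHFR, NME2 and NME6.

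After the IMPDH genes, GDA had the largest difference between the knockdowns on this list. It was at 40.4, 37.8 and 38.2 CPM in the control and 42.1, 41.9 and 43.8 CPM in the IMPDH1 knockdown, but at 18.7, 17.3 and 17.8 CPM in the IMPDH2 knockdown. The IMPDH1 libraries overlapped neither group, although their distance from the control was small. The difference between the knockdowns was 1.25 (adjusted p = 1.21e-18).

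A pair of nucleoside and nucleobase transporters had larger changes than any enzyme of the list other than IMPDH1. SLC29A2 (chr11:66362521-66372214), an equilibrative carrier of nucleosides and nucleobases, was at 71.0, 67.9 and 63.6 CPM in the control and at 123, 120 and 116 CPM in the knockdown. Every knockdown library was above every control library. The rise was 0.82 ± 0.034 (adjusted p = 9.11e-17), with 84.9, 85.0 and 84.8 CPM in the IMPDH2 knockdown. SLC43A3 (chr11:57406954-57427580), an equilibrative nucleobase transporter of the purine salvage route, was at 14.6, 13.7 and 14.1 CPM in the control and at 5.91, 5.67 and 5.47 CPM in the knockdown. Its fall was -1.31 ± 0.064 (adjusted p = 3.19e-15), with 12.3, 13.2 and 13 CPM in the IMPDH2 knockdown, so the groups did not overlap. SLC38A5, a glutamine carrier, rose by 1.14 and SLC16A1, a monocarboxylate carrier, fell by 0.39 on the log2 scale. In the whole list of amino acid and nucleoside transporters, 11 of 31 tested genes rose and 9 fell.

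**Figure D1:**
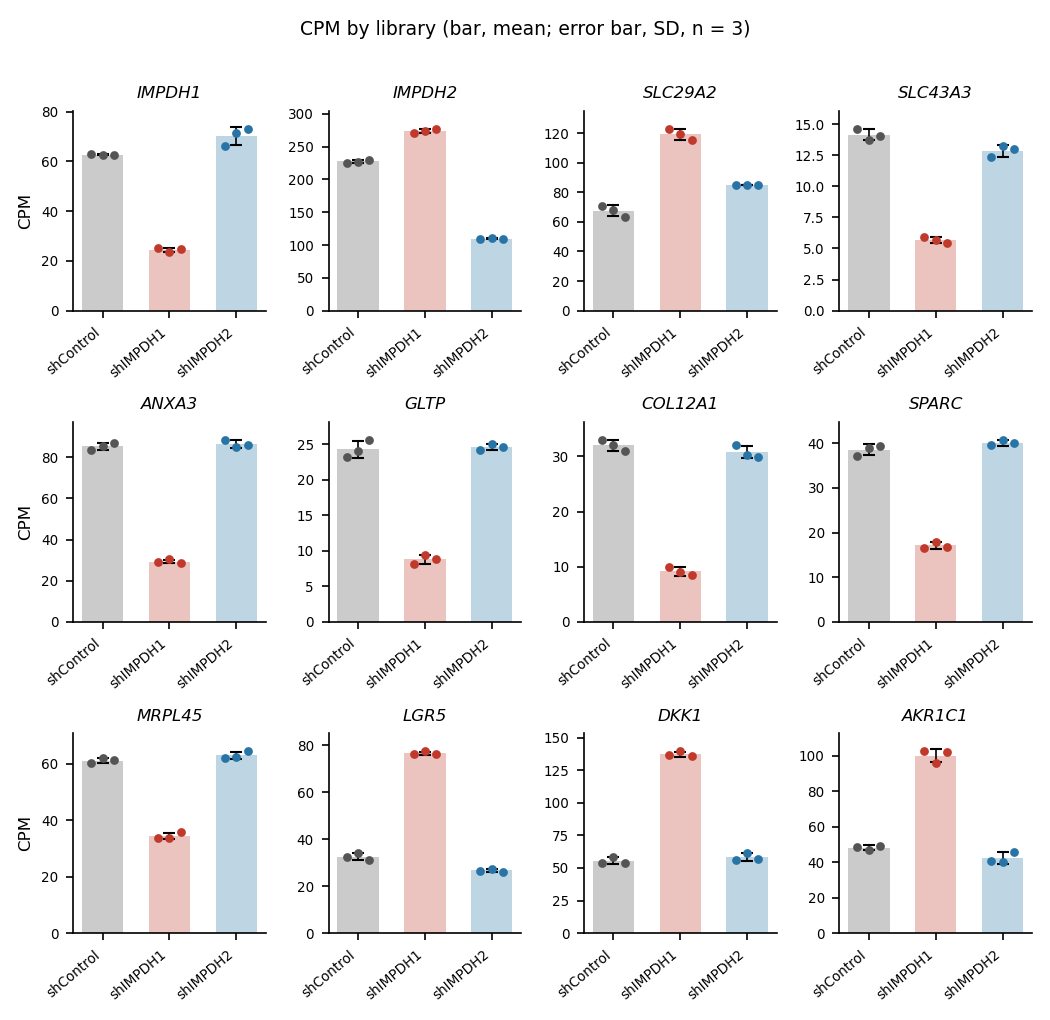
CPM (vertical axes) of 12 genes in each library of shControl, shIMPDH1 and shIMPDH2, with a point per library, a bar at the mean and error bars of 1 SD (n = 3). IMPDH1 sits at 23.5 to 25.3 CPM in its own knockdown against 62.5 to 62.9 CPM in the control, and SLC29A2, LGR5, DKK1 and AKR1C1 are higher and SLC43A3, ANXA3, GLTP, COL12A1, SPARC and MRPL45 lower in the IMPDH1 knockdown than in both other groups.

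Across the transcriptome the changes were many and mostly small. In the IMPDH1 knockdown 3585 genes rose (20.6%) and 3967 fell (22.8%), 7552 in all (43.4%). The counts of rises and falls in each gene list are to be read beside these shares. Called genes changed by 1.19-fold at the median, and 3931 of them (52.1%) changed by less than 1.2-fold. More than 2-fold changes were called for 527 genes (3.03%), of which 188 rose (1.08% of all genes tested) and 339 fell (1.95%). Every control library lay on the same side of every knockdown library in 8990 genes (51.7%), so a lack of overlap between these libraries was common. When the test asked for a change beyond 1.2-fold, 670 genes rose and 1143 fell. Without control replicate 1, 3374 genes rose and 3786 fell.

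The genes with the largest rises included signalling and neural adhesion genes. The choice was restricted to genes whose log2 CPM averaged 2 or more and whose control and knockdown libraries did not overlap. CNKSR2, a scaffold of Ras signalling, was at 7.03, 6.75 and 7.54 CPM in the control and at 16, 16.9 and 16.2 CPM in the knockdown. ROBO2, a receptor of the guidance cue SLIT, was at 5.63, 6.85 and 6.40 CPM in the control and at 13.2, 14.5 and 14.3 CPM in the knockdown. Their log2 changes were 1.21 and 1.15. Both were also higher in the IMPDH2 knockdown, at 11.3 to 12 and 9.67 to 10.4 CPM, and the 2 knockdowns differed by 0.50 and 0.48 (adjusted p = 4.60e-08 and 1.06e-06).

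Among the largest falls were genes of calcium release and glycan synthesis. ITPR3, an inositol trisphosphate receptor of the endoplasmic reticulum, was at 34.4, 31.5 and 32.4 CPM in the control and at 10.2, 9.93 and 9.87 CPM in the knockdown, a log2 change of -1.71 ± 0.055 (adjusted p = 4.78e-19). FUT3, the fucosyltransferase of Lewis antigens, was at 18.3, 14.7 and 15.1 CPM and fell to 5.93, 4.38 and 4.74 CPM. Both genes were likewise chosen among those without overlap between control and knockdown libraries. In the IMPDH2 knockdown they stood at 17.2, 19.8 and 17.9 CPM and at 7.21, 6.16 and 6.79 CPM, and the direct differences between the knockdowns were -0.87 for ITPR3 and -0.43 for FUT3.

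**Figure D2:**
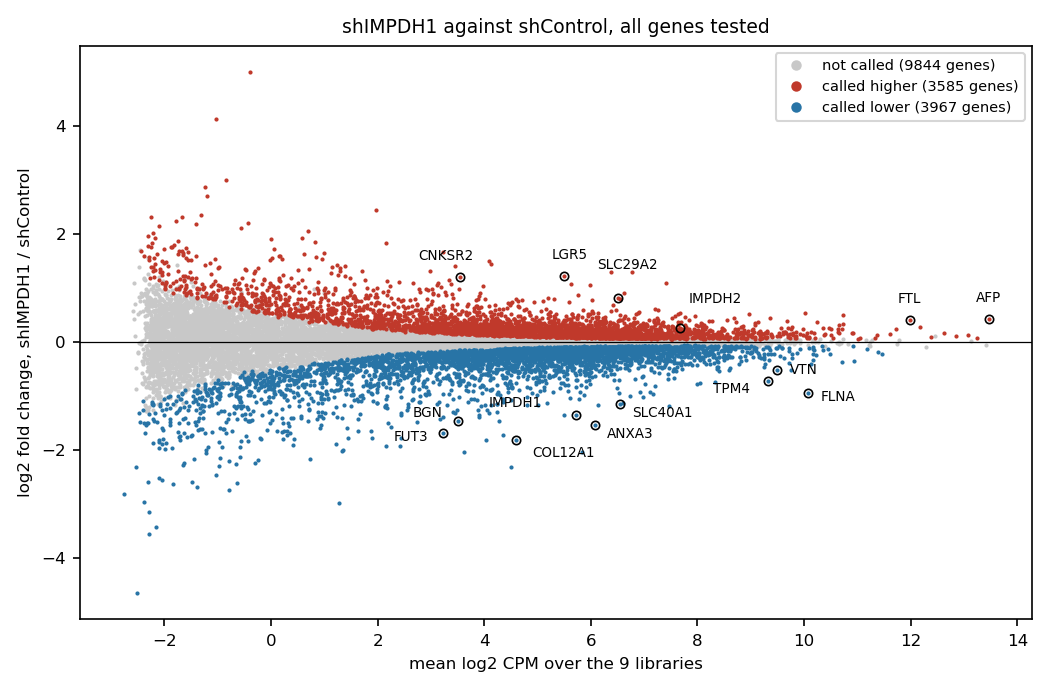
Log2 change of the IMPDH1 knockdown against the control (vertical axis) by mean log2 CPM (horizontal axis) for 17396 genes, with called rises in red, called falls in blue and genes not called in grey. Most of the 7552 called genes lie close to 0, and more genes fall by over 2-fold (339) than rise by as much (188).

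Most genes on the list of the actin cytoskeleton fell, and this list was chosen with earlier results of these data known. Filamins, tropomyosins, myosin light chains and calponins build and crosslink contractile actin filaments, and many of their genes are textbook targets of serum response factor (SRF), which binds the CArG box and is activated when the pool of free actin monomers shrinks. Of 36 tested genes on the actin and contractile list, 31 fell and none rose, against 22.8% and 20.6% of all genes. FSCN1, which encodes an actin-bundling protein and is not on the list, rose. The list median was -0.24, beside 0.00 over all genes tested. Against the IMPDH2 knockdown 30 of the 36 were lower and 1 was higher, with a median of -0.24, where 21.7% of all genes were lower and 22.2% higher. Beyond 1.2-fold, 13 fell. With a library left out at a time, the count of falls was 29 to 31, and 1 gene rose without control replicate 1 and without IMPDH2 knockdown replicate 1.

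The most abundant members that fell carried the largest losses of RNA. FLNA (chrX:154348524-154374638, minus strand), the filamin that crosslinks actin at the cell cortex, was at 1407, 1392 and 1373 CPM in the control, 722, 737 and 724 CPM in the IMPDH1 knockdown and 1129, 1113 and 1162 CPM in the IMPDH2 knockdown. The 3 groups did not overlap, with the IMPDH1 knockdown lowest. The change was -0.94 ± 0.024 (adjusted p = 4.81e-21). TPM4 (chr19:16067021-16103005), a tropomyosin, was at 697, 720 and 730 CPM in the control, at 433, 441 and 436 CPM in the IMPDH1 knockdown and at 756, 745 and 773 CPM in the IMPDH2 knockdown, a change of -0.71 ± 0.025 (adjusted p = 1.90e-18) against the control. MYL9, a regulatory myosin light chain, was at 55, 53.9 and 54.6 CPM in the control and at 25.7, 26.7 and 26.3 CPM in the IMPDH1 knockdown, but at 81.1, 81.5 and 84.5 CPM in the IMPDH2 knockdown. For MYL9 the knockdowns lay on opposite sides of the control, and the direct difference between them was -1.65 (adjusted p = 2.14e-23). ACTB, the cytoplasmic beta actin, fell by 0.17 from 2777, 2828 and 2799 to 2486, 2512 and 2453 CPM. The members not called were PDLIM5, ZYX, CFL1, CALD1 and ACTN1, between -0.03 and 0.06.

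The CArG box was looked for in the promoters of these genes, since it is the site of SRF, a member of the list. RefSeq promoters (GRCh38.p14, from 250 bases before to 50 after the start) were found for 11712 of the tested genes (67.3%). A CArG box (CC, 6 bases that are each A or T, and GG) was present on either strand in 7 of 33 promoters of the actin list (21.2%). It was present in 123 of 11609 promoters of all genes tested (1.06%), in 44 of 3124 promoters of genes that fell (1.41%) and in 26 of 2726 of genes that rose (0.954%). The list holds genes that are known as SRF targets, so this share is a description of how the list was drawn up. These stretches run 5′ to 3′ on the strand of the gene, the capitals mark the box, and they are shown because they are the only listed genes with the box in this window.
ACTG1 (chr17:81512859-81512918, minus): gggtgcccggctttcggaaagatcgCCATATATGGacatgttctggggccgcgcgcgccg
CNN2 (chr19:1026494-1026553, plus): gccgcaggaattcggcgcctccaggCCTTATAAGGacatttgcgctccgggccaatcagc
EGR1 (chr5:138465349-138465430, plus): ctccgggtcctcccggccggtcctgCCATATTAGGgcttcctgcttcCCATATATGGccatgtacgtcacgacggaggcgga
FHL2 (chr2:105438580-105438639, minus): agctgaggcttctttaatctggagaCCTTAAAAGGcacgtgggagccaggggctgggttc
FLNA (chrX:154374694-154374753, minus): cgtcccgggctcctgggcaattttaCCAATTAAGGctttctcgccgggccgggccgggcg
SRF (chr6:43171214-43171268, plus): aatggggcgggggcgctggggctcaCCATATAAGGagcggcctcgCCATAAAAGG
TPM4 (chr19:16067340-16067399, plus): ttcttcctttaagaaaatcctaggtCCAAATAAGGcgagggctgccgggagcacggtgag

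All 7 of these genes fell against the control. The log2 changes were -0.94 for FLNA, -0.71 for TPM4, -0.36 for EGR1, an immediate early transcription factor, -0.28 for SRF itself, -0.24 for FHL2, a LIM-domain cofactor, -0.16 for CNN2, a calponin, and -0.13 for ACTG1, the cytoplasmic gamma actin. Against the IMPDH2 knockdown 6 of them were lower, from -0.83 for EGR1 to -0.09 for SRF (adjusted p = 0.0437), while ACTG1 was higher by 0.11. Of the other motifs searched, TGANTCA, the AP-1 site, was in 20 of 215 promoters of genes that fell by more than 2-fold (9.30%), in 8 of 100 of those that rose by more than 2-fold (8.00%) and in 4.67% of all genes tested. GGAATG, TGACNNNGC and CTTTGAT, letters bound by TEAD, MAF-family and TCF factors, were in 11.6%, 13.5% and 2.79% of the promoters of the deep falls, beside 11.1%, 15% and 1.56% of all genes tested. Both strands were searched, and a TGANTCA match can overlap a TGACNNNGC match.

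Small GTPases fell more often than they rose. On the list of GTP-sensing and small GTPase genes, 12 of 30 fell and 4 rose, with a median of -0.05, and 3 fell beyond 1.2-fold. Over all genes tested 22.8% fell and 20.6% rose. Compared with the IMPDH2 knockdown, 20 of the 30 were lower and 2 higher. In the IMPDH2 knockdown itself 16 of the 30 rose and 5 fell against the control. RHOC, a GTPase of cell migration, was at 63.6, 64.4 and 65.5 CPM in the control and 46.5, 48.3 and 46.0 CPM in the knockdown, a fall of 0.46 on the log2 scale (adjusted p = 5.61e-12). RALB fell by 0.40, RHOU by 0.29 and ARF6, a GTPase of endosomal traffic, by 0.22. None of these 4 genes overlapped between control and knockdown.

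Tubulin, which binds GTP at each subunit, fell in several isotypes. On the list of tubulins, stathmins and dynein subunits 11 of 29 genes fell and 7 rose, with a median of -0.06. In the IMPDH2 knockdown 15 of the 29 fell and 6 rose against the same control libraries, with a median of -0.13. Between the knockdowns 11 were higher and 10 lower in the IMPDH1 knockdown, with a median of 0.05, so the list as a whole was not lower there. TUBB, a main beta-tubulin, was at 2100, 2229 and 2212 CPM in the control and 1685, 1744 and 1734 CPM in the knockdown, a fall of 0.34 on the log2 scale. TUBB6 was at 206, 205 and 200 CPM in the control and 135, 136 and 136 CPM in the knockdown, a fall of 0.59. Both lay below the IMPDH2 knockdown, by the test, with differences of -0.22 and -0.42, and DYNLL2, a dynein light chain, rose by 0.53. Tubulin genes share long identical stretches, so reads may have been split between them.

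The matrix and the cell surface lost many transcripts as well. Of 34 tested matrix glycoproteins and proteoglycans, 22 fell and 7 rose, with a median of -0.31, and 13 fell beyond 1.2-fold. The number of rises was 4 without control replicate 2 or 3 or without knockdown replicate 2. SPARC, a collagen-binding matricellular protein, was at 37.2, 39.0 and 39.4 CPM in the control and 16.6, 18 and 16.8 CPM in the knockdown, a change of -1.17 ± 0.043 (adjusted p = 7.30e-18). BGN, the proteoglycan biglycan, was at 13.6, 12.7 and 13.1 CPM in the control and 5.01, 4.91 and 4.36 CPM in the knockdown. HSPG2, the basement membrane proteoglycan perlecan, was at 165, 155 and 153 CPM in the control and 82.0, 85.6 and 83.2 CPM in the knockdown, a change of -0.92. In the IMPDH2 knockdown these genes stood at 39.5 to 40.7, 15.2 to 16.5 and 169 to 171 CPM, at or above the control, and the direct differences were -1.22, -1.75 and -1.03. Fibronectin (FN1) rose by 0.17, from 5841, 5775 and 5973 to 6607, 6597 and 6574 CPM.

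Collagens did not move as a group, with 10 of 25 tested genes lower and 7 higher. COL12A1, a fibril-associated collagen, was at 33.0, 32.2 and 30.9 CPM in the control and 9.96, 9.07 and 8.46 CPM in the knockdown. COL14A1, of the same class, was at 221, 204 and 222 CPM in the control and 115, 108 and 110 CPM in the knockdown, and COL9A2 fell by 0.64. COL11A1, a fibrillar chain of cartilage, was at 6.63, 6.90 and 6.30 CPM in the control and rose to 14.8, 13.3 and 13.5 CPM. COL12A1 and COL11A1 differed from the IMPDH2 knockdown by -1.75 and 1.29, whereas COL14A1 stood at 103, 95.6 and 108 CPM there. Fibroblast markers summed to 102 to 104 CPM in the control and 109 to 111 CPM in the knockdown, with COL1A1 at -1.22 and COL1A2 at 0.26 on the log2 scale, and POSTN, DCN and ACTA2 at or near 0.

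Laminins and integrins fell without a rise among them: 16 of 25 tested genes were lower, 7 of them beyond 1.2-fold, with a median of -0.21. LAMA5, a laminin chain of epithelial basement membranes, was at 296, 262 and 258 CPM in the control and 212, 200 and 205 CPM in the knockdown, and LAMB2 and LAMC1 fell by 0.37 and 0.21. LAMB2 and LAMC1 were also lower than in the IMPDH2 knockdown (-0.42 and -0.09), whereas LAMA5 did not differ by the test between the knockdowns (0.01, adjusted p = 0.913). Among matrix proteases and their inhibitors 20 of 35 fell and 4 rose. LOXL2, a lysyl oxidase that crosslinks collagen, fell from 7.45, 7.35 and 6.60 to 2.36, 2.35 and 2.48 CPM. The membrane-type metalloproteases differed in direction, with MMP15 at -0.56, MMP14 at -0.42 and MMP16 at 0.78.

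Keratins and junction genes fell in 22 of 34 cases and rose in 3, with a median of -0.27. CLDN6, a claudin of fetal epithelia and tumours, was at 115, 119 and 119 CPM in the control and 63.5, 65.7 and 67.4 CPM in the knockdown. VIM, the intermediate filament vimentin, was at 343, 340 and 334 CPM in the control, 236, 234 and 233 CPM in the IMPDH1 knockdown and 441, 445 and 452 CPM in the IMPDH2 knockdown. KRT8, the main keratin of hepatocytes, fell by 0.22, from 2904, 2971 and 2946 to 2495, 2535 and 2543 CPM. GJA1, the gap junction protein connexin 43, went the other way, from 116, 120 and 119 to 179, 188 and 178 CPM. The 4 genes had no overlap between control and knockdown libraries.

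Among the lists read here, S100 proteins and annexins, which bind calcium and membranes, had the lowest median at -0.44. Of 21 tested members, 17 fell and none rose, 13 beyond 1.2-fold and 8 by more than 2-fold. ANXA3 (chr4:78551519-78610451) was at 83.8, 85.4 and 86.8 CPM in the control, at 28.9, 30.4 and 28.7 CPM in the IMPDH1 knockdown and at 88.4, 85.0 and 86.0 CPM in the IMPDH2 knockdown. Its fall was -1.54 ± 0.034 (adjusted p = 2.67e-22), and the IMPDH1 libraries lay apart from both other groups. S100A6, calcyclin, was at 22.5, 20.3 and 20.8 CPM in the control and 9.91, 8.81 and 10.0 CPM in the knockdown. ANXA4 was at 413, 440 and 424 CPM in the control and 298, 304 and 301 CPM in the knockdown, but lower still in the IMPDH2 knockdown at 260, 267 and 271 CPM. Against the IMPDH2 knockdown 12 of the 21 were lower and 6 higher.

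Signalling genes did not all move in the same direction. Wnt feedback genes rose in 13 of 33 cases and fell in 11. LGR5 (chr12:71439770-71586310), the R-spondin receptor that marks stem cells of the intestine and pericentral hepatocytes, was at 32.5, 34.0 and 31.2 CPM in the control, 76.1, 77.3 and 76.4 CPM in the IMPDH1 knockdown and 26.6, 27.5 and 26.2 CPM in the IMPDH2 knockdown. The rise was 1.23 ± 0.036 (adjusted p = 5.63e-20), and the knockdowns lay on opposite sides of the control. MYC, which drives growth and nucleotide synthesis genes, rose by 0.81 from 72.0, 68.6 and 71.8 to 124, 124 and 124 CPM. CCND1, cyclin D1, fell by 0.67 from 232, 231 and 236 to 147, 150 and 143 CPM. The IMPDH2 knockdown held 80.4 to 89.7 CPM of MYC and 184 to 187 CPM of CCND1, between the other groups for both genes.

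Growth factor receptors and ligands fell in 25 of 39 cases and rose in 3, with a median of -0.20 and 13 falls beyond 1.2-fold. In the IMPDH2 knockdown 20 of the 39 fell and 6 rose against the same control libraries. Between the knockdowns 19 were lower and 9 higher in the IMPDH1 knockdown. FGFR2 was at 11.5, 9.43 and 11.1 CPM in the control and 5.66, 5.63 and 4.76 CPM in the knockdown. The ephrin receptor EPHA2 fell by 0.48, the ERK phosphatase DUSP5 by 0.39 and VEGFA by 0.37. Among TGF-beta and BMP genes 17 of 30 fell and 5 rose, or 3 without control replicate 1. TGFB1 itself was at 53.3, 47.8 and 49.3 CPM in the control and 34.2, 33.3 and 33.3 CPM in the knockdown. FST, follistatin, the antagonist of activin, rose from 62.4, 66.2 and 63.3 to 90.1, 93.8 and 94.7 CPM, and it was 0.80 higher than in the IMPDH2 knockdown (adjusted p = 3.37e-17).

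Of the Notch pathway, 3 receptors and a ligand fell. NOTCH1, NOTCH2 and NOTCH3 fell by 0.50, 0.35 and 0.71, and the ligand JAG1 by 0.40, from 482, 494 and 493 to 375, 375 and 364 CPM. NOTCH3 was at 34.7, 31.0 and 31.2 CPM in the control, 19.8, 19.9 and 19.5 CPM in the IMPDH1 knockdown and 14.1, 14.9 and 15.8 CPM in the IMPDH2 knockdown. In the whole list 7 of 19 tested genes fell and 3 rose, and the effectors HES1 and HEY1 were not called (-0.05 and -0.12). The list median was -0.06. In the IMPDH2 knockdown 11 of the 19 fell and 1 rose against the same control libraries, with a median of -0.23. Between the knockdowns 8 were higher and 4 lower in the IMPDH1 knockdown, with a median of 0.30. The immediate early genes IER3 and FOSL2 fell by 0.88 and 0.73, and their list had 8 falls and 6 rises among 25 genes.

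**Figure D3:**
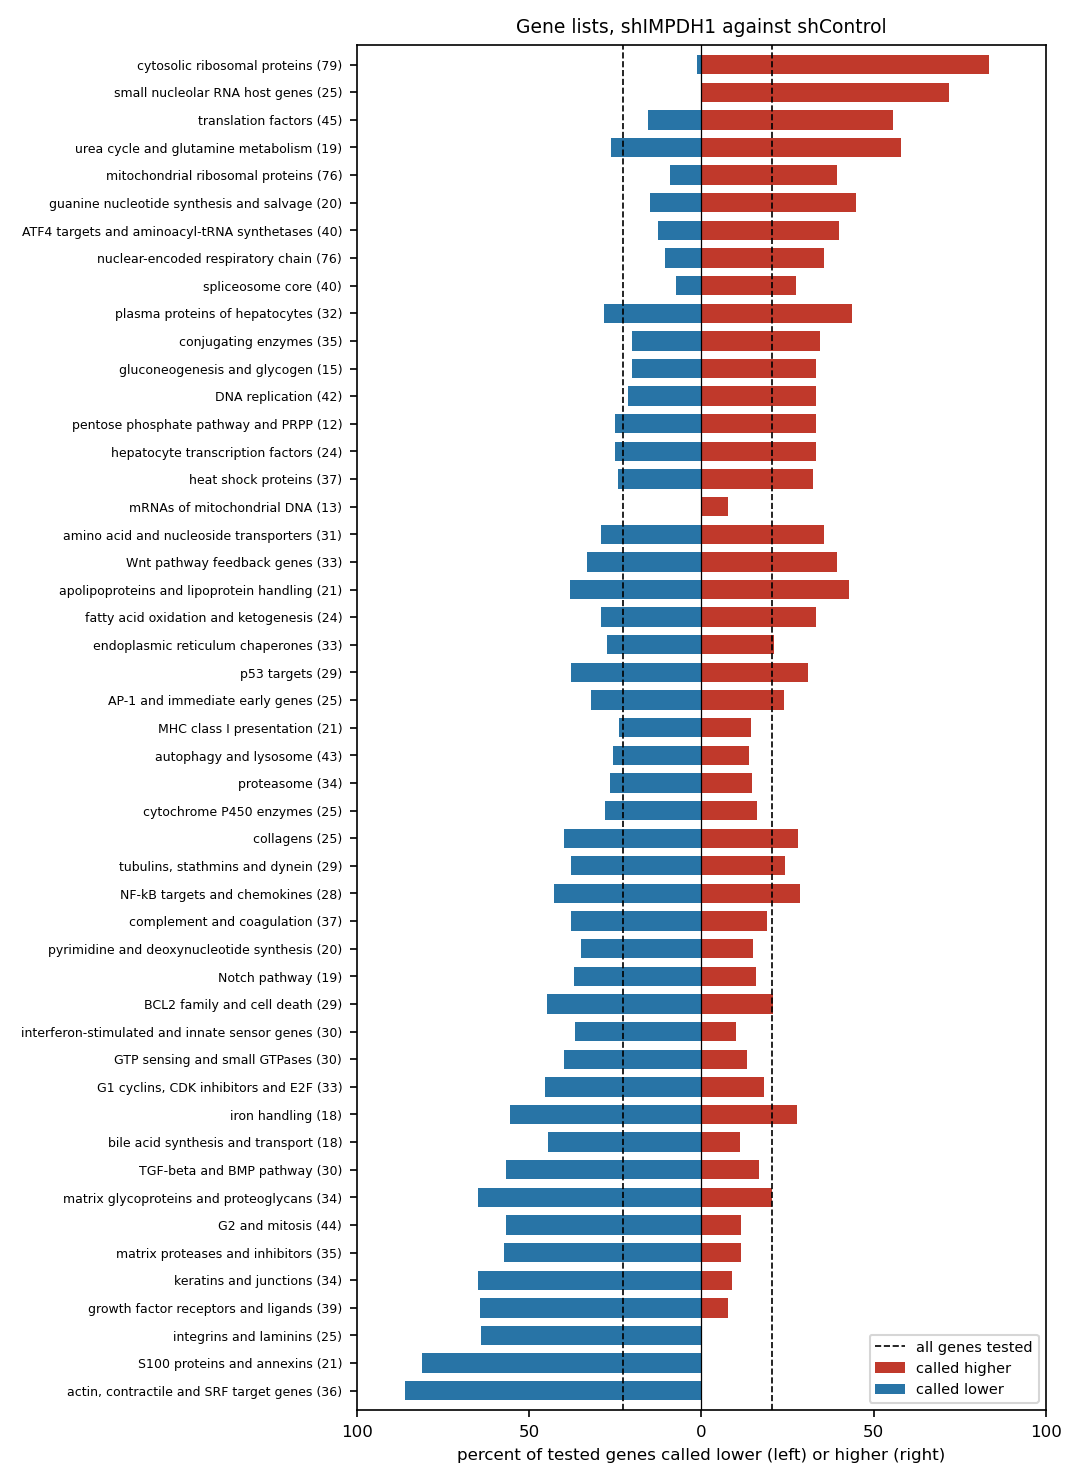
Share of the tested members of each gene list that fell (bars to the left) or rose (bars to the right) in the IMPDH1 knockdown against the control, in percent, with dashed lines at the share of all genes (22.8% and 20.6%). Actin genes and S100 and annexin genes have the longest bars to the left, with no rise in either list, and cytosolic ribosomal proteins and small nucleolar RNA host genes the longest to the right.

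Liver functions moved in several directions. The urea cycle and glutamine list had 11 rises and 5 falls among 19 tested genes, with a median of 0.12. GLUD1 (chr10:87050486-87094866), the mitochondrial glutamate dehydrogenase that releases ammonia for the cycle, was at 351, 365 and 376 CPM in the control and 485, 493 and 501 CPM in the knockdown, a rise of 0.44. ARG1, the arginase of the hepatic urea cycle, was at 13.3, 11.1 and 12 CPM in the control and 18.1, 17 and 18.7 CPM in the knockdown, a rise of 0.57. ARG2, the mitochondrial arginase, was at 40.2, 39.9 and 43.5 CPM in the control and 28, 29.1 and 29 CPM in the knockdown, a fall of 0.52 on the log2 scale. CPS1, which makes the carbamoyl phosphate of the cycle, was at 10.4, 11.4 and 11.4 CPM in the control and 32.2, 30.5 and 31.4 CPM in the knockdown. CPS1, GLUD1 and ARG1 were also above the IMPDH2 knockdown, by 1.79, 0.36 and 0.47.

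Secreted proteins of the hepatocyte split. Of 32 tested plasma proteins, 14 rose and 9 fell, with 9 rises without knockdown replicate 3. AFP, alpha-fetoprotein, the fetal albumin of liver tumours, rose by 0.43 from 8957, 9579 and 9718 to 12471, 12707 and 12781 CPM. AHSG, fetuin-A, rose by 0.51 from 1318, 1355 and 1358 to 1875, 1918 and 1929 CPM. VTN, vitronectin, fell from 792, 782 and 774 to 534, 545 and 560 CPM, and SERPINA3, an acute-phase protease inhibitor, from 35.3, 34.7 and 33.7 to 16.6, 17.4 and 19.7 CPM. AFP and AHSG were at 11653 to 11985 and 1807 to 1909 CPM in the IMPDH2 knockdown, near the IMPDH1 knockdown, while VTN and SERPINA3 were at 822 to 868 and 36.5 to 37.5 CPM, near the control. The direct differences were 0.10 for AFP and 0.03 (not called, adjusted p = 0.398) for AHSG, but -0.62 for VTN and -1.04 for SERPINA3.

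Complement and coagulation genes fell in 14 of 37 cases and rose in 7. Fibrinogen chains FGA and FGG rose by 0.44 and 0.38, and KNG1, kininogen, fell by 0.48. Compared with the IMPDH2 knockdown, 28 of the 37 were lower and 3 higher, with a median of -0.29. The larger part of that distance lay in the IMPDH2 knockdown, where 26 of the 37 rose and 5 fell against the control, with a median of 0.22, beside -0.06 in the IMPDH1 knockdown.

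The conjugating enzymes of drug and steroid metabolism held 12 rises and 7 falls among 35 tested genes, 8 and 5 of them beyond 1.2-fold. SULT2A1, the sulfotransferase of DHEA and bile acids, was at 30.4, 31.2 and 30.3 CPM in the control, 46.8, 47.8 and 46.3 CPM in the IMPDH1 knockdown and 30.6, 30.0 and 28.5 CPM in the IMPDH2 knockdown. UGT2B4, a glucuronosyltransferase of bile acids, was at 11.2, 11.2 and 11.7 CPM in the control and 19.9, 19.1 and 20.2 CPM in the IMPDH1 knockdown, against 13.5, 12.8 and 12.8 CPM. AKR1C1, a reductase of progesterone and other ketones, was at 48.7, 46.6 and 49.1 CPM in the control, 102, 95.6 and 102 CPM in the IMPDH1 knockdown and 40.7, 39.9 and 46.0 CPM in the IMPDH2 knockdown. For these 3 genes the IMPDH1 libraries were above all others, by 0.66, 0.60 and 1.25 against the IMPDH2 knockdown. Cytochrome P450 genes rose in 4 of 25 cases and fell in 7, with CYP39A1, an oxysterol hydroxylase, at 0.67, CYP2J2 at 0.58 and CYP26B1, which clears retinoic acid, at -0.43.

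The bile acid receptor and its repressor target fell. NR1H4, the bile acid receptor FXR, was at 162, 163 and 172 CPM in the control, 130, 136 and 135 CPM in the IMPDH1 knockdown and 232, 225 and 231 CPM in the IMPDH2 knockdown. Its target NR0B2, the repressor SHP, was at 13.5, 12.6 and 14.2 CPM in the control, 7.57, 7.08 and 8.60 CPM in the IMPDH1 knockdown and 12.8, 14.6 and 12.3 CPM in the IMPDH2 knockdown. The falls were -0.31 ± 0.028 (adjusted p = 7.13e-10) and -0.79 ± 0.075 (adjusted p = 2.11e-09). On the bile acid list, 8 of 18 tested genes fell and 2 rose. SLC51B, a subunit of the basolateral bile acid exporter, fell by 0.65 and the hormone FGF19 by 0.38. BAAT, which conjugates bile acids to amino acids, fell from 3.10, 3.32 and 2.66 to 1.12, 1.28 and 1.09 CPM, and AKR1D1, a reductase of bile acid synthesis, rose by 0.71. Among hepatocyte transcription factors 8 of 24 rose and 6 fell, with 5 rises without control replicate 2 or 3 and by DESeq2. HNF4A, the central regulator of hepatocyte genes, rose by 0.12 and CREB3L3, a fasting-induced factor, fell by 0.63.

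The genes of iron storage rose and the gene of iron export fell. Ferritin stores iron, and ferroportin (SLC40A1) is the sole known iron exporter of cells. FTL, the ferritin light chain, was at 3593, 3766 and 3682 CPM in the control and 4826, 4880 and 4942 CPM in the knockdown, and FTH1, the heavy chain, at 4314, 4356 and 4326 CPM and at 5200, 5308 and 5241 CPM. Both rose, by 0.41 and 0.28. SLC40A1 (chr2:189560579-189583758, minus strand) was at 118, 126 and 123 CPM in the control, 52.3, 55.8 and 57 CPM in the IMPDH1 knockdown and 103, 96.9 and 101 CPM in the IMPDH2 knockdown, a change of -1.15 ± 0.035 (adjusted p = 1.33e-19) and -0.87 between the knockdowns. IREB2, the iron regulatory protein that binds ferritin and ferroportin mRNA, fell by 0.40 from 231, 234 and 236 to 178, 180 and 174 CPM, and HAMP, the hormone hepcidin, by 0.46 from 70.4, 75.4 and 73.6 to 52.9, 53.3 and 53.5 CPM. Of the 18 tested iron genes 10 fell and 5 rose, with a median of -0.12. Annotated exons of FTH1 are overlapped over 62.4% of their length by a gene on the other strand, so its level is less certain, and both ferritin genes have many near-identical pseudogenes.

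In the pentose phosphate pathway, which supplies the ribose of nucleotides and NADPH, 4 of 12 genes rose and 3 fell. TKT, transketolase, was at 260, 258 and 250 CPM in the control and 310, 319 and 320 CPM in the IMPDH1 knockdown, against 238, 248 and 244 CPM. TKT rose by 0.30 and exceeded the IMPDH2 knockdown by 0.38. RPIA, which makes ribose 5-phosphate, rose by 0.32 and the epimerase RPE fell by 0.16. Of 20 pyrimidine and deoxynucleotide genes, 7 fell and 3 rose. CAD, the first enzyme of pyrimidine synthesis, rose by 0.21, and thymidine kinase TK1 and thymidylate synthase TYMS fell by 0.24 and 0.17.

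**Figure D4:**
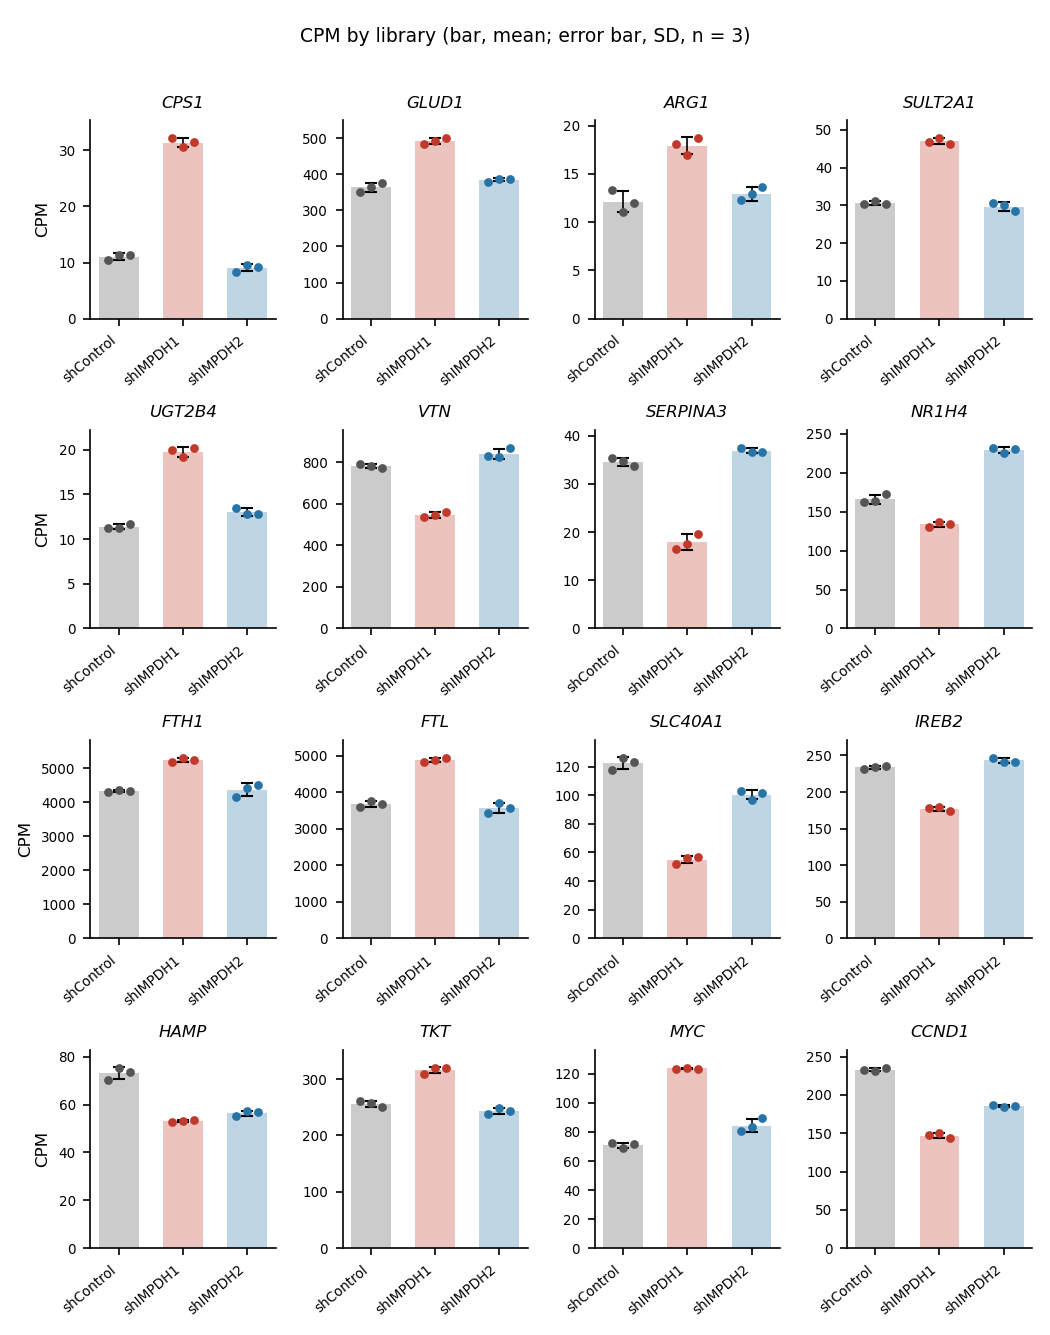
CPM (vertical axes) of 16 genes of the urea cycle, secretion, conjugation, bile acid sensing, iron, the pentose phosphate pathway and growth in each library of the 3 groups, with a point per library, a bar at the mean and error bars of 1 SD (n = 3). SLC40A1 is at 52.3 to 57 CPM in the IMPDH1 knockdown against 118 to 126 CPM in the control, and NR1H4 is lower in the IMPDH1 and higher in the IMPDH2 knockdown than in the control.

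Genes of fat and sugar metabolism changed in both directions. CPT1A, the gate of fatty acids into mitochondria, was at 15, 16.1 and 16.5 CPM in the control, 8.56, 7.95 and 9.12 CPM in the IMPDH1 knockdown and 15.5, 17.2 and 16.8 CPM in the IMPDH2 knockdown, a fall of 0.89 on the log2 scale. ACSL1, an acyl-CoA synthetase, rose by 0.41 and HADHA, of the trifunctional protein, by 0.22. The fatty acid oxidation list as a whole had 8 rises and 7 falls among 24 genes, and the gluconeogenesis and glycogen list 5 and 3 among 15. PKM, the pyruvate kinase of tumour cells, fell by 0.36, from 1876, 1916 and 1908 to 1474, 1474 and 1477 CPM. PPARGC1A, a coactivator of mitochondrial and gluconeogenic genes, rose by 0.55, and ABCA1, the cholesterol exporter, by 0.39. MTTP, which loads lipid on apolipoprotein B, fell by 0.39, to about the level of the IMPDH2 knockdown (0.01, adjusted p = 0.735).

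Genes of the translation machinery rose by small steps. Small nucleolar RNA host genes, whose introns release the guide RNAs of ribosomal RNA modification, rose in 18 of 25 cases and none fell, with a median of 0.17. SNHG1 was at 160, 164 and 163 CPM in the control and 192, 192 and 194 CPM in the knockdown, a rise of 0.25. Of 79 cytosolic ribosomal protein genes 66 rose and 1 fell, with a median of 0.15, but only 1 rose beyond 1.2-fold, and 1 host gene did so. RPL15 and RPL13A rose by 0.39 and 0.29. Translation factors rose in 25 of 45 cases and fell in 7. PABPC1, the poly(A)-binding protein, rose from 1044, 1078 and 1085 to 1373, 1400 and 1373 CPM, and EIF3G rose by 0.31. EIF4G1, the scaffold of the cap-binding complex, fell from 975, 969 and 975 to 686, 690 and 679 CPM, and the release factor ETF1 from 280, 275 and 292 to 211, 208 and 213 CPM. EIF4G1 fell by 0.51 and ETF1 by 0.42 on the log2 scale, and they differed from the IMPDH2 knockdown by -0.43 and -0.36.

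Nuclear genes of mitochondria rose in part, also by small steps. Respiratory chain genes rose in 27 of 76 cases and fell in 8, with a median of 0.05 and none beyond 1.2-fold. The falls numbered 3 without knockdown replicate 1 and 5 without control replicate 2 or 3. Over all genes tested 20.6% rose and 22.8% fell. Among the 2247 protein-coding genes of highest level 33.5% rose and 31.0% fell. Mitochondrial ribosomal proteins rose in 30 of 76 cases and fell in 7, or 4 without knockdown replicate 1. MRPL45 had the largest change of that list, at 60.2, 62.0 and 61.3 CPM in the control, 33.8, 33.8 and 35.8 CPM in the IMPDH1 knockdown and 62.2, 62.4 and 64.4 CPM in the IMPDH2 knockdown. It fell by 0.83 on the log2 scale, and MRPS10 and MRPL54 fell by 0.51 and 0.41. For the 13 mRNAs of mitochondrial DNA the counts of calls moved with single control libraries. With all libraries 1 rose, MT-ND6, and none fell. Without control replicate 1, 8 fell, and without control replicate 3, 5 rose. The MT-ND6 rise of 0.32 was lost without control replicate 2 (adjusted p = 0.0804) and by DESeq2 (0.208).

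Genes of mitosis were slightly lower. Genes of G2 and mitosis fell in 25 of 44 cases and rose in 5, with a median of -0.08 and 2 falls beyond 1.2-fold. CCNA2, cyclin A2, was at 135, 141 and 138 CPM in the control and 98.4, 106 and 101 CPM in the knockdown, with 141 to 145 CPM in the IMPDH2 knockdown. The list as a whole was also lower in the IMPDH2 knockdown against the same control libraries, with 23 falls, 4 rises and a median of -0.08, and between the knockdowns 12 genes were higher and 13 lower, with a median of -0.01. ANLN, anillin, the actin-binding protein of the cleavage furrow, fell by 0.35, NUSAP1 by 0.31 and TOP2A by 0.28. Of 33 genes of G1 control and E2F, 15 fell and 6 rose. E2F2 was at 17.9, 16.5 and 17.5 CPM in the control and 10.2, 10.2 and 9.65 CPM in the knockdown, and CDKN1A, the inhibitor p21, at 16.9, 17.6 and 16 CPM and at 10.0, 9.99 and 10.2 CPM. DNA replication genes rose in 14 of 42 cases and fell in 9.

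The p53 targets did not move together, with 9 rises and 11 falls among 29 genes, or 7 falls without control replicate 1. MDM2, the ubiquitin ligase of p53, rose by 0.46, from 53, 51.1 and 53 to 73.5, 72.1 and 70.4 CPM, while CDKN1A fell by 0.74. PLK2, a kinase of the p53 response, rose by 0.76. Of 29 genes of the BCL2 family and cell death, 13 fell and 6 rose. The pore-forming BAK1 fell by 0.35, and the survival genes BCL2L1 and MCL1 fell by 0.29 and 0.25.

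Innate immune genes fell more often than they rose on the interferon list and among NF-kB targets. On the interferon list 11 of 30 genes fell and 3 rose, or 5 without control replicate 3 or knockdown replicate 1. IFITM3, which blocks virus entry, was at 54.9, 55 and 54.8 CPM in the control and 33.9, 34.0 and 34.3 CPM in the knockdown, a fall of 0.69 on the log2 scale, and OAS1 fell by 0.60. Of 28 NF-kB targets and chemokines 12 fell and 8 rose. IL18 fell from 16.7, 15.9 and 16.5 to 9.57, 9.46 and 9.12 CPM and CXCL16 by 0.62, while VCAM1, an adhesion molecule, rose from 7.29, 7.70 and 8.02 to 12.3, 15.4 and 12.8 CPM. Genes of MHC class I presentation did not share a direction, with 5 falls, 3 rises and 13 of 21 not called and a median of 0.01. Among the falls were HLA-B, HLA-C and HLA-E, by 0.41, 0.30 and 0.38. HLA-C did not differ from the IMPDH2 knockdown by the test (0.00, adjusted p = 0.945).

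Heat shock genes changed in both directions. HSPB8, a small heat shock protein of protein clearance, was at 22.7, 21.4 and 22.5 CPM in the control, 8.74, 9.20 and 9.08 CPM in the IMPDH1 knockdown and 18.3, 18.1 and 21.3 CPM in the IMPDH2 knockdown, the largest fall of the heat shock list at -1.30. The heat shock factor HSF1 and the mitochondrial chaperone TRAP1 rose by 0.38 and 0.31. The list as a whole held 12 rises and 9 falls among 37 genes. Proteasome genes fell in 9 of 34 cases and rose in 5, or 9 without knockdown replicate 1, and none of them changed beyond 1.2-fold, nor did any of 43 autophagy and lysosome genes. Among ATF4 targets and aminoacyl-tRNA synthetases 16 of 40 rose and 5 fell, with LARS and WARS at 0.29 and 0.24.

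The IMPDH2 knockdown gave the check on specificity. Both knockdowns were compared with the same control libraries, so their changes against it are not independent, and the direct test between them was used. In that test 3865 genes were higher (22.2%) and 3783 lower (21.7%) in the IMPDH1 knockdown, 7648 in all (44.0%), and the libraries of the knockdowns did not overlap in 8954 genes (51.5%). Beyond 1.2-fold, 887 were higher and 1049 lower. The share that differed between the knockdowns was thus close to the 43.4% that differed between the IMPDH1 knockdown and the control. The IMPDH2 knockdown differed from the control in 6687 genes (38.4%).

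Some genes differed in the same direction, and by more than 2-fold, from both other groups. CAPN2, a calcium-activated protease of adhesion sites, was at 11.6, 11.5 and 10.9 CPM in the control, 4.54, 4.36 and 3.82 CPM in the IMPDH1 knockdown and 11.6, 11 and 10.3 CPM in the IMPDH2 knockdown. GLTP, a glycolipid transfer protein, was at 23.2, 24 and 25.6 CPM in the control, 8.18, 9.36 and 8.82 CPM in the IMPDH1 knockdown and 24.2, 25 and 24.5 CPM in the IMPDH2 knockdown. The IMPDH1 libraries lay below all others for both genes, with log2 changes of -1.42 and -1.46 against the control, -1.38 and -1.48 against the IMPDH2 knockdown, and -0.05 and 0.02 (not called) between the IMPDH2 knockdown and the control. DKK1, a secreted Wnt antagonist, was higher than in both groups, at 137, 139 and 136 CPM against 54, 58.7 and 54 and against 56.4, 61.5 and 57.2 CPM. BRINP3 was at 7.80, 8.52 and 8.52 CPM against 2.40, 2.13 and 2.45 and against 2.75, 2.78 and 2.76 CPM.

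Other genes reached about the same level in both knockdowns. KRT19, a keratin of biliary and progenitor cells, was at 26.3, 27.1 and 25.2 CPM in the control, 10.7, 11 and 11.3 CPM in the IMPDH1 knockdown and 12.2, 11.6 and 11.5 CPM in the IMPDH2 knockdown. COL9A3, a chain of collagen IX, was at 22.2, 19.99 and 20.5 CPM in the control, 10.4, 10.1 and 9.59 CPM in the IMPDH1 knockdown and 10.3, 11.5 and 10.9 CPM in the IMPDH2 knockdown. The direct differences were -0.10 ± 0.057 and -0.12 ± 0.064 (adjusted p = 0.159 and 0.149), so neither was called. The knockdown libraries overlapped for COL9A3, whereas for KRT19 every IMPDH1 library lay slightly below every IMPDH2 library. Biliary markers summed to 248 to 251 CPM in the control, 215 to 220 CPM in the IMPDH1 knockdown and 192 to 204 CPM in the IMPDH2 knockdown, with KRT7 at a single count in all libraries together.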

How the data were processed

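The authors deposited whole-number counts of reads per gene for 9 libraries, named by gene symbol. Per the submitters' processing notes, reads were trimmed with Trim Galore and cutadapt, aligned with STAR to hg38 and counted with featureCounts. For versions and for the strand setting of counting the sources used here give nothing. Groups came from the sample labels.

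Genes passing filterByExpr were fitted with edgeR 4.0.16 (R 4.3.3) on all 9 libraries, with TMM scaling, quasi-likelihood tests and Benjamini-Hochberg adjustment over 17396 genes. The alternatives were DESeq2 1.42.0, other scalings and filters, a minimum fold of 1.2, a replicate block, 6 libraries only and leaving out each library. The fit was tested on simulated data.

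The members and the gene lists were chosen with earlier results of these data known. The text names the guanine nucleotide list, the 12 largest rises and 12 falls (log2 CPM averaging 2 or more, no overlap), the 8 largest CPM differences each way, up to 4 called genes of smallest p per list, the 8 genes each way farthest from both other groups, and the 6 most opposed between knockdowns. The same log2 CPM limit held for the genes farthest from both other groups and for those most opposed between knockdowns. Markers, neighbours of IMPDH1, genes with a CArG box, the 5 actin genes not called, HES1 and HEY1 are named besides, after their values were seen. Some genes that these rules pick are not reported here.

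Positions are from GENCODE 29 (GRCh38), matched for 15117 genes (86.9%), and promoters from RefSeq (GRCh38.p14). Without a known strand setting, genes overlapped on the other strand are less certain, among the named genes NT5C2, ARG2, LYZ, TYMS, BCL2L1, FTH1 and GCHFR, with over 30% of their exon length. Reads of ribosomal protein, tubulin, actin, ferritin, HLA, UGT2B and AKR1C genes may be shared with near-identical copies. Each library held at least 44560837 counts, and 3 counts corresponded to 0.0519 to 0.0674 CPM.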

Additional observations from a re-analysis of the deposited data

Results flagged for a closer look

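In 6 genes the knockdowns moved to opposite sides of the control, with every library on its own side, and the direct test between the knockdowns passed the threshold. They are the 6 largest such differences.

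Of these, 3 were lower in the IMPDH1 and higher in the IMPDH2 knockdown. TAGLN, the actin-binding protein transgelin, was at 53.1, 48.9 and 50.9 CPM in the control, 12.6, 12.5 and 12.2 CPM in the IMPDH1 knockdown and 106, 104 and 110 CPM in the IMPDH2 knockdown. The knockdowns differed by -3.10 on the log2 scale. NPPB, the natriuretic peptide BNP, was at 15.4, 15.1 and 15.3 CPM in the control, 4.49, 4.57 and 4.08 CPM in the IMPDH1 knockdown and 28.8, 28.3 and 30.9 CPM in the IMPDH2 knockdown, a difference of -2.74. ALPK3, an alpha-kinase of striated muscle, was at 15.5, 13.2 and 15.4 CPM in the control, 5.89, 5.49 and 5.45 CPM in the IMPDH1 knockdown and 25.8, 23.4 and 24 CPM in the IMPDH2 knockdown, a difference of -2.12.

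The other 3 were higher in the IMPDH1 and lower in the IMPDH2 knockdown. STMN3, a stathmin that binds tubulin, was at 12, 13.4 and 11.5 CPM in the control, 33.4, 33.7 and 33.7 CPM in the IMPDH1 knockdown and 6.45, 6.93 and 7.69 CPM in the IMPDH2 knockdown, a difference of 2.26. SULT1E1, the estrogen sulfotransferase, was at 4.95, 6.12 and 4.81 CPM in the control, 10.5, 11.6 and 12 CPM in the IMPDH1 knockdown and 2.44, 2.41 and 2.25 CPM in the IMPDH2 knockdown, also a difference of 2.26. FSCN1, the actin-bundling protein fascin, was at 30.6, 29.1 and 30.2 CPM in the control, 41.4, 42.3 and 38.6 CPM in the IMPDH1 knockdown and 8.37, 9.69 and 10.3 CPM in the IMPDH2 knockdown, a difference of 2.11. The log2 change against the control was 0.45 for FSCN1 in the IMPDH1 knockdown and -1.67 in the IMPDH2 knockdown, so most of its difference lay in the latter.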

How the results depend on the processing

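The number of genes called in each direction stayed within 1.5 times of the value reported under every alternative except the minimum fold. With a minimum fold of 1.2, 670 genes rose and 1143 fell against the control, 887 were higher and 1049 lower against the IMPDH2 knockdown, and the IMPDH2 knockdown had 486 rises and 904 falls against the control. Leaving out a library at a time gave 2987 to 3725 rises and 3524 to 4104 falls against the control, 3392 to 3979 and 3416 to 3939 between the knockdowns, and 2797 to 3232 and 2839 to 3451 for the IMPDH2 knockdown. DESeq2 gave 3164 rises and 3576 falls against the control. Scaling moved the median of all genes to between -0.02 and 0.03.

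Same-numbered control and IMPDH1 knockdown libraries had correlations of deviations of 0.248, 0.0853 and 0.0511. Differently numbered libraries of these groups had correlations from -0.174 to 0.123. The value of 0.248, for replicate 1, was the highest of all pairs between groups. With the replicate number as a block, 3689 genes rose and 4046 fell against the control, 3992 and 3860 differed between the knockdowns, and 3321 and 3533 did for the IMPDH2 knockdown. The block changed a single named call, MT-RNR2 between the knockdowns (0.08, adjusted p = 0.0385).

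Over 486 named gene values, the minimum fold ended 188 calls and each other alternative at most 9. Against the control, calls for CD14, GCH1, EEF1A1, HOXA10, HOXD10 and MT-ND6 were lost under at least 1 other alternative. The MT-ND6 difference between the knockdowns (0.00 with all libraries) ranged from -0.11 to 0.22 as libraries were left out, the upper value and its reversed sign coming without IMPDH2 knockdown replicate 1, where its CPM was 168 against 113 and 110. The cause was not tested.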

Other observations

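These values belong to genes and groups chosen after they were seen. Among Wnt feedback genes, the targets AXIN2 and NKD1 rose by 0.60 and 0.31 and were at 5.78, 6.02 and 5.89 CPM and 10.8, 11.5 and 10.6 CPM in the IMPDH1 knockdown, against 2.35, 2.47 and 2.13 CPM and 5.16, 4.79 and 4.95 CPM in the IMPDH2 knockdown. NOTUM, a secreted Wnt inactivator, fell by 1.29 on the log2 scale and DKK3 by 0.92, so targets and antagonists of the pathway did not move in a single direction.

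Some genes of low level had larger fold changes than the named genes. TRIB2, a pseudokinase, was at 1.76, 1.47 and 1.76 CPM in the control, 8.81, 8.65 and 9.53 CPM in the IMPDH1 knockdown and 1.29, 1.31 and 1.05 CPM in the IMPDH2 knockdown, a rise of 2.44 ± 0.105 (adjusted p = 2.18e-16). FREM2, a basement membrane protein, was at 0.120, 0.0692 and 0 CPM in the control and 2.25, 2.14 and 2.08 CPM in the IMPDH1 knockdown, and at most 0.0211 CPM in the IMPDH2 knockdown. GRM3, a glutamate receptor, was at 0.0799, 0.0519 and 0.0645 CPM in the control, 0.944, 1.39 and 1.19 CPM in the IMPDH1 knockdown and 0.111, 0.104 and 0.190 CPM in the IMPDH2 knockdown. PSAPL1, a prosaposin-like gene, was at 4.71, 3.995 and 4.15 CPM in the control, 0.494, 0.428 and 0.694 CPM in the IMPDH1 knockdown and 2.12, 2.34 and 2.04 CPM in the IMPDH2 knockdown. In each of these genes the IMPDH1 libraries lay apart from both other groups.

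Calls were unevenly spread over chromosomes and gene classes. The chromosome shares cover only protein-coding genes above a lower limit on mean level. Without that limit, 23.7% of 13482 protein-coding genes rose and 27.7% fell. Among the 2247 of lowest level 10.3% rose and 18.6% fell. On chromosome 6, 14.7% of 587 genes rose and 40.9% fell, with a median of -0.07. On chromosome 8, 38.5% of 390 genes rose and 22.1% fell, with a median of 0.04. The medians for the IMPDH2 knockdown against the same control libraries were -0.05 and 0.07. Pseudogenes rose in 13.3% and fell in 4.47% of 694 cases, with a median of 0.15, and long noncoding genes rose in 12.8% and fell in 8.77% of 810 cases.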
